A study of Mus musculus with 8 samples.

Results

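The insulin-like growth factor system was measured as 10 genes: the ligands Igf1 and Igf2, their receptors Igf1r and Igf2r, and the binding proteins Igfbp2 to Igfbp7. The members were all array probes that are not controls and carry 1 of these gene names, which gave 16 probes. Of these, 15 stood clear of background in 4 or more of the 8 arrays, and all 10 genes were measured among 19751 genes in all. RNA came from the cortex of 8 male C57BL/6NCr mouse pups at postnatal day 1.5 (P1.5), with 1 one-colour Agilent array per pup. The 4 pups labelled ischemia came from mothers whose uterine arteries were clipped shut for 14 min under anesthesia on embryonic day E16.5, and 4 pups were labelled control. No allele or transgene is named for either group, and nothing in the labels tells whether control mothers had surgery without clipping or which pups were littermates. The p-values therefore measure only the spread between these pups, which may include litter.

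Insulin-like growth factors are small secreted proteins related to insulin. Igf1 and Igf2 act mainly through the receptor tyrosine kinase Igf1r, which signals growth and survival through the PI3K-Akt and MAP kinase pathways, while Igf2r, also the cation-independent mannose 6-phosphate receptor, carries Igf2 to the lysosome for breakdown. The binding proteins hold the ligands outside cells, lengthen their life and limit or direct their access to the receptors. In the developing brain Igf1 supports neurons and glia, and Igf2 is made largely by the meninges, the choroid plexus and vessels. Igf2 and Igf2r are imprinted genes in the mouse.

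A level is given below as a scaled intensity in arbitrary units, which is the probe's processed signal after all arrays were brought to a common 75th percentile. Levels of different probes cannot be compared, since probes differ in how strongly they bind. The 8 arrays lay on 1 slide with all control arrays in 1 row and all ischemia arrays in the other, so row and group cannot be told apart. The share of spots well above background was 47.6% to 51.7% per array, and the 75th percentile before scaling ran from 305.6 to 393.3. Of the listed markers of cortical projection neurons, 14 of 14 were well above background on 8 of 8 arrays. The ischemia arrays of replicates 1 and 4 stood apart in genes of tissue next to the cortex. The level of Ptgds, a prostaglandin synthase of the meninges and choroid plexus, was 160 to 354 on the control arrays, 296 and 355 in ischemia replicates 2 and 3, and 2937 and 3970 in replicates 1 and 4. The difference of each member is therefore also given without those arrays. In bulk tissue, fewer cells of a type and less RNA per cell cannot be told apart.

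No member passed the test between ischemia and control. With limma and Benjamini-Hochberg adjustment over all genes, 0 of 10 members had an adjusted p under 0.05, against 1 of 19751 genes, or 0.00506%. At an unadjusted limma p under 0.05, 3 of 10 members were higher in ischemia (Igf2, Igfbp3 and Igfbp6) and 0 were lower, against 3.25% of all genes higher and 7.65% lower. Without any scaling of the arrays these shares of all genes were 8.20% higher and 1.39% lower, and the same 3 members were higher at that level. In some alternative settings, given below, Igf2 was not at that level. The groups did not overlap for 2 of 10 members, Igfbp3 and Igfbp6, both higher in ischemia, where 2.27% of all genes were higher without overlap and 4.28% lower. In all, 6 members were higher and 4 were lower, where 43.0% of all genes were higher. The members' median difference was 0.03 on the log2 scale, against -0.02 over all genes, and their median absolute difference was 0.208 against 0.0886. The plot of levels by array shows each pup.

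**Figure D1:**
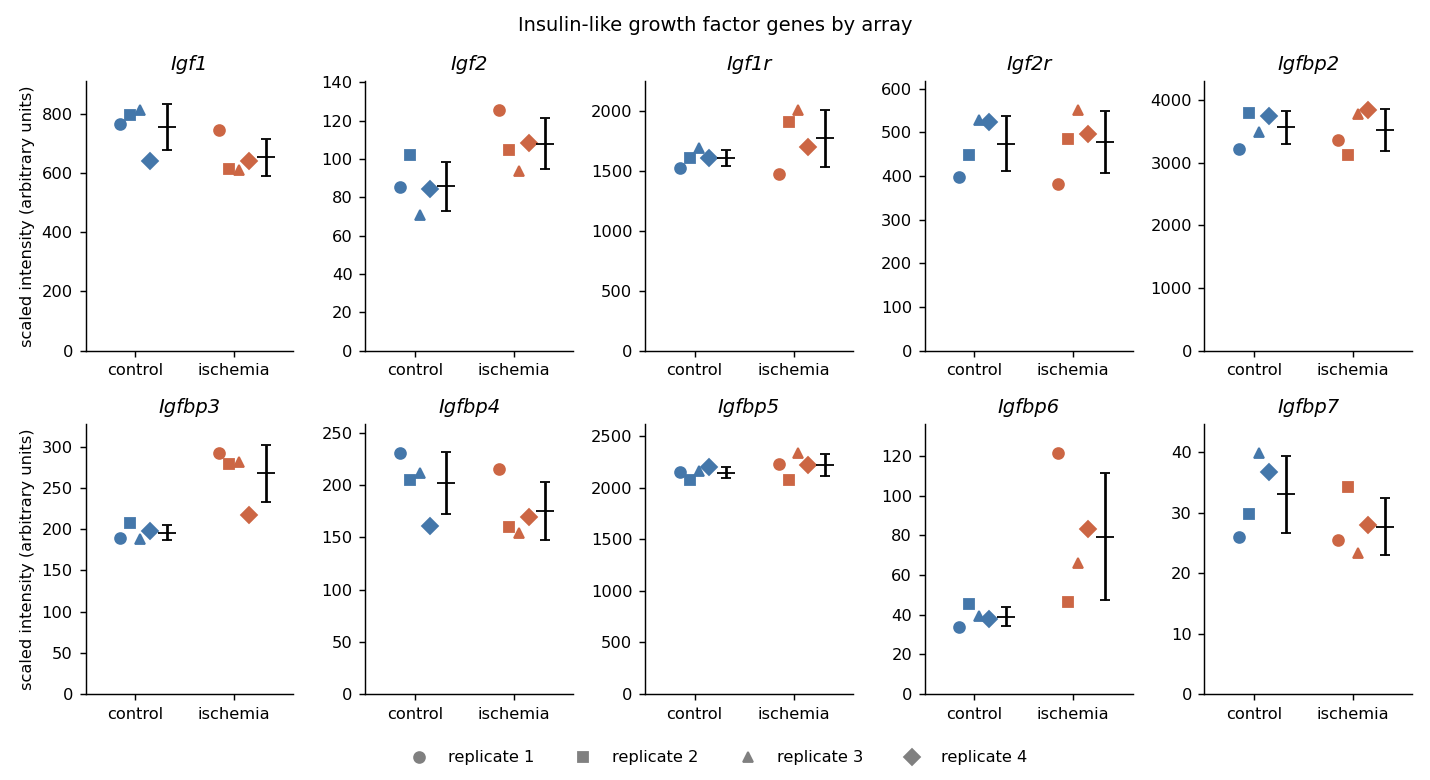
Scaled intensity (arbitrary units, each panel from 0) of the 10 genes on the 4 control and 4 ischemia arrays, 1 symbol per replicate number; the black bar is the mean and SD of 4 arrays. For Igfbp3 and Igfbp6 all 4 ischemia arrays lie above all 4 control arrays, though Igfbp6 of ischemia replicate 2, at 46.4, is close to control replicate 2, at 45.2.

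Igf2, the fetal growth ligand, lay higher in ischemia without passing after adjustment. Its probe (NM_010514, chr7:149839661-149839720 in mm9, minus strand) gave 85.5, 102, 70.7 and 84.6 on control arrays 1 to 4 and 126, 105, 93.8 and 108 on ischemia arrays 1 to 4. Ischemia replicate 1 was the highest array, and the groups overlapped because ischemia replicate 3 lay below control replicate 2. The mean was 85.8 ± 12.9 in control and 108 ± 13.2 in ischemia (SD, n = 4 each). The difference was 0.34 on the log2 scale (SE 0.127, 95% interval 0.05 to 0.63), a fold of 1.26, with an unadjusted limma p of 0.0281 and an adjusted p of 0.400. Without ischemia replicates 1 and 4 it was 0.22 (unadjusted limma p of 0.189). With the normexp background correction, whose added offset shrinks differences of dim probes, it was 0.15 (unadjusted limma p of 0.102). With control replicate 1, 3 or 4, or ischemia replicate 1 or 4, left out alone, the unadjusted limma p was 0.0519 to 0.0742.

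H19, the non-coding RNA transcribed beside Igf2 from the oppositely imprinted allele, was spread most widely among the ischemia pups. Its level was 883, 988, 845 and 797 on the control arrays and 1842, 1191, 640 and 1144 on ischemia arrays 1 to 4. Ischemia replicate 1 was the highest of the 8 arrays and ischemia replicate 3 the lowest. The log2 difference was 0.36 (SE 0.275, limma adjusted p = 0.688), and 6 H19 probes gave 0.36 to 0.67.

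Igf1, which postnatal growth depends on, lay lower in ischemia on each of its probes and did not pass. The probe with the highest signal (NM_184052, chr10:87378456-87378515, plus strand) gave 765, 797, 812 and 641 on the control arrays and 744, 614, 611 and 639 on the ischemia arrays. The groups overlapped: control replicate 4 lay among the ischemia arrays and ischemia replicate 1 among the controls. Means were 753.8 ± 77.7 and 651.9 ± 62.7 (SD, n = 4 each), a log2 difference of -0.21 (SE 0.099, 95% interval -0.43 to 0.02, limma p of 0.0669, adjusted p = 0.493). Without ischemia replicates 1 and 4 it was -0.29, and without scaling of the arrays it was -0.07 (unadjusted limma p of 0.464), where the median of all genes was 0.11.

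Igf1 was also read by 4 other probes, all listed under NM_010512, and 5 of 5 probes were lower in ischemia, by -0.33 to -0.21. The 5 probes span 21185 bases of chromosome 10 in mm9. The probe at chr10:87393561-87393620 differed by -0.33 (unadjusted limma p of 0.0221, adjusted p = 0.424) and shares 40 of its 60 bases with the probe at chr10:87393581-87393640, which differed by -0.28 (unadjusted limma p of 0.0139, adjusted p = 0.388). The dim probe at chr10:87395924-87395983 differed by -0.28 (limma p of 0.00927, adjusted p = 0.355) and was well above background on 4 control and 3 ischemia arrays. The probe at chr10:87399581-87399640 differed by -0.24 (limma p of 0.0838, adjusted p = 0.554). On each probe the groups overlapped. The probe at chr10:87393581-87393640 gave 146, 178, 162 and 174 on the control arrays and 134, 137, 121 and 150 on the ischemia arrays. On each of the 4 other probes ischemia replicate 1 lay below every control, while on the probe with the highest signal it lay among the controls. Probes of 1 gene read the same RNA samples, so their shared direction is not replication across pups. With a gene's probes averaged, the Igf1 difference was -0.27 (unadjusted limma p of 0.00562, adjusted p = 0.319).

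**Figure D2:**
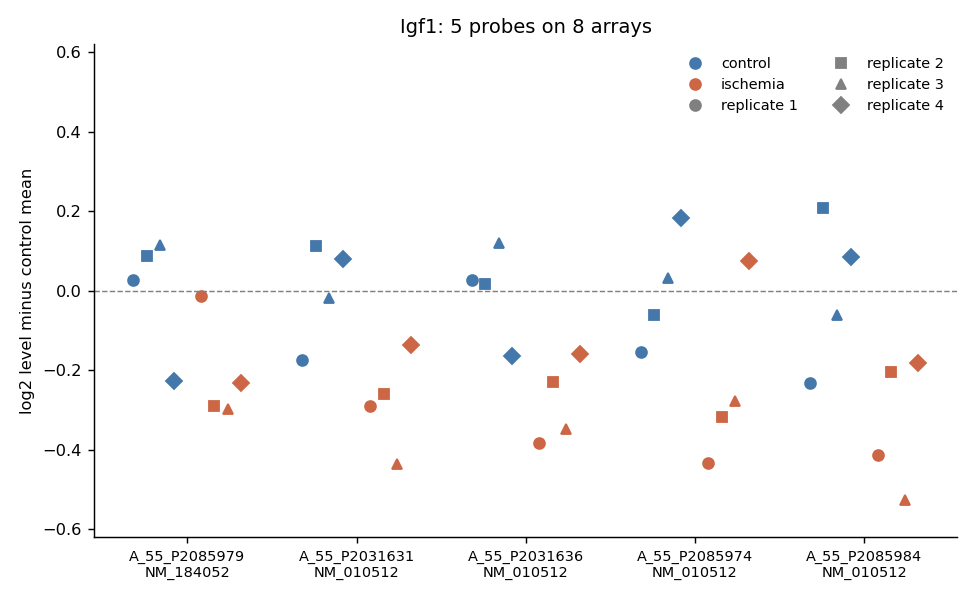
Log2 level of the 5 Igf1 probes on the 8 arrays, each probe minus its own control mean, 1 column of points per probe (the leftmost is the probe with the highest signal), blue for control and orange for ischemia, 1 symbol per replicate number. Most ischemia points lie below 0; ischemia replicate 1 sits near 0 on the leftmost probe only, and ischemia replicate 4 lies above 0 on the probe at chr10:87399581-87399640.

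Neither receptor passed the test. Igf1r, the signalling receptor (NM_010513, chr7:75378461-75378520, plus strand), gave 1523, 1611, 1693 and 1613 on the control arrays and 1475, 1915, 2012 and 1700 on the ischemia arrays. Ischemia replicate 1 was the lowest of the 8 arrays, while the other 3 ischemia arrays lay above every control. The coefficient of variation was 4.32% in control and 13.5% in ischemia. The log2 difference was 0.13 (SE 0.10, 95% interval -0.10 to 0.36, limma adjusted p = 0.688). Without ischemia replicate 1 it was 0.22, without ischemia replicate 3 it was 0.07, and without ischemia replicates 1 and 4 it was 0.29 (unadjusted limma p of 0.00929, adjusted p = 0.302).

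Igf2r, the clearance receptor, was nearly level between the groups. Its probe (NM_010515) was printed on 10 spots per array, and the files list 11 of its bases at chr17:12875253-12875263. It gave 397, 448, 529 and 524 on the control arrays and 382, 485, 551 and 495 on the ischemia arrays. Replicate 1 was the lowest array of each group. The difference was 0.01 (SE 0.135, 95% interval -0.30 to 0.32, limma adjusted p = 0.987), its sign turned when single arrays were left out, and without ischemia replicates 1 and 4 it was 0.13. Between pups the coefficient of variation was 13.4% in control and 14.8% in ischemia, against 4.74% to 9.18% between the 10 spots within an array. Insr, the insulin receptor that can pair with Igf1r, was also lowest on ischemia replicate 1 and highest on ischemia replicate 3, at 121 and 178 against 128 to 154 in control, and differed by 0.06 (SE 0.128, limma adjusted p = 0.898). Its 3 probes gave 0.06 to 0.30.

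Igfbp3, the main carrier of the ligands in blood and also a product of vessels and other cells in tissue, had the smallest p of the members. Its probe (NM_008343, chr11:7106594-7106653, minus strand) gave 189, 207, 188 and 198 on the control arrays and 292, 280, 282 and 217 on the ischemia arrays. Ischemia replicates 1 to 3 lay close together, replicate 4 was well below them, and all 4 were above every control. Means were 195 ± 8.96 and 268 ± 34.4 (SD, n = 4 each). The log2 difference was 0.44 (SE 0.10, 95% interval 0.22 to 0.67), a fold of 1.36, with an unadjusted limma p of 0.00195, rank 163 of 19751, and an adjusted p of 0.236. It was 0.52 (unadjusted limma p of 0.00037) without ischemia replicates 1 and 4, and 0.54 without replicate 4 alone (adjusted p = 0.0935, the lowest of its alternatives). A second Igfbp3 probe, designed on the transcript ENSMUST00000135887, was well above background on 0 of 8 arrays and gave no value.

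Igfbp6, which binds Igf2 in preference to Igf1 and is made by fibroblast-like cells, had the largest difference of the members and the largest spread. The probe (NM_008344, chr15:101979852-101979911, plus strand) was dim but well above background on 8 of 8 arrays. It gave 33.9, 45.2, 39.1 and 37.7 on the control arrays and 122, 46.4, 66.2 and 83.3 on the ischemia arrays. Ischemia replicate 1 was highest and replicate 2 lay just above the highest control. Means were 39.0 ± 4.70 and 79.4 ± 31.9 (SD, n = 4 each), and the coefficient of variation was 12.1% against 40.2%. The log2 difference was 0.95 (SE 0.262, 95% interval 0.35 to 1.55), a fold of 1.93, with an unadjusted limma p of 0.00644, rank 427, and an adjusted p of 0.294. Without ischemia replicates 1 and 4 it was 0.52 (unadjusted limma p of 0.0228), and with the normexp correction 0.36.

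The 250 bases before the transcription start of 3 members follow as RefSeq gives them for GRCm38.p6, a later build than that of the probes, written along the gene's strand. They were chosen after the values were seen: Igfbp3 and Igfbp6 as the members whose groups did not overlap, and Igf2r as the member with the most matches to the core of the hypoxia response element. Capitals mark that core, ACGTG or GCGTG on either strand, with overlapping matches joined.
Igfbp3 (chr11:7213924-7214173, minus strand): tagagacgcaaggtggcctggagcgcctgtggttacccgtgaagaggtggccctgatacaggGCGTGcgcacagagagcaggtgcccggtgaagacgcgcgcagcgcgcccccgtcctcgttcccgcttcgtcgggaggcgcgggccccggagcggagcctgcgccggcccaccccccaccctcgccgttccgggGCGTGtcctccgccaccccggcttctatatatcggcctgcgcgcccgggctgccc
Igfbp6 (chr15:102143936-102144185, plus strand): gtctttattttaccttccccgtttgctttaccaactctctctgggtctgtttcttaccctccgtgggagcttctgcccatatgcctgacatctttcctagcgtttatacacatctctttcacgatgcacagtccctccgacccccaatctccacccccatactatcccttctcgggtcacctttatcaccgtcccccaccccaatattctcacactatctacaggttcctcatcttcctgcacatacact
Igf2r (chr17:12769707-12769956, minus strand): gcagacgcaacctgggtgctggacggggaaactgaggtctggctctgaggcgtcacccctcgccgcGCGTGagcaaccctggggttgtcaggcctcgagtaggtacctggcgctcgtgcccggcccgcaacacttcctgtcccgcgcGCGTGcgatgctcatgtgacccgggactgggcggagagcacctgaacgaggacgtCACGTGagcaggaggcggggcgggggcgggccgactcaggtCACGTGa

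The Igfbp3 window held the core at 2 places, 188 and 55 bases before the start, the Igfbp6 window held it at 0 places, and the Igf2r window at 4, at 184, 103, 48 and 7 bases before the start. Their GC content was 73.2%, 49.6% and 69.2%, against a median of 52.4% over all windows. All 10 members matched the RefSeq promoter table, with 14 windows between them. The core was in 7 of these 14 windows and in 38.6% of all 32851 windows of the same length. GGGCGG, the GC box, searched on both strands, was in 6 of 14 and in 32.7% of all. TATAAA, the TATA box, searched on the gene's strand only, was in 1 of 14, that of Igfbp4, and in 7.59% of all. These matches are letters in a window and no measure of binding; of the 2 members whose groups did not overlap, 1 had the core and the other did not have it in this window.

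Igfbp2 and Igfbp5, the binding proteins long known from developing brain, are neighbours on chromosome 1 on opposite strands, and their probes lie 5956 bases apart in mm9. Igfbp2 (NM_008342, chr1:72898813-72898872, plus strand) gave 3224, 3799, 3494 and 3738 on the control arrays and 3363, 3124, 3769 and 3842 on the ischemia arrays. The groups covered nearly the same range. The log2 difference was -0.02 (SE 0.089, 95% interval -0.22 to 0.18, limma adjusted p = 0.964), and a second probe gave -0.06. Without ischemia replicates 1 and 4 it was -0.05. Igfbp5 (NM_010518, chr1:72904829-72904888, minus strand) gave 2153, 2071, 2164 and 2198 on the control arrays and 2232, 2079, 2335 and 2221 on the ischemia arrays. It was the steadiest member, with a coefficient of variation of 2.52% in control and 4.74% in ischemia. Its difference was 0.05 (SE 0.057, 95% interval -0.09 to 0.18, limma adjusted p = 0.828), and 0.04 without ischemia replicates 1 and 4.

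Igfbp4, which the protease Pappa cleaves to free Igf1, lay lower without passing. Its probe (chr11:98913334-98913393, plus strand) gave 231, 205, 212 and 161 on the control arrays and 216, 160, 155 and 170 on the ischemia arrays. As with Igf1, control replicate 4 lay among the ischemia arrays and ischemia replicate 1 among the controls. The log2 difference was -0.21 (SE 0.140, 95% interval -0.53 to 0.11, limma adjusted p = 0.644), and -0.35 without ischemia replicates 1 and 4 and -0.07 without scaling. Igfbp7, a vessel-associated protein that binds insulin-like growth factors weakly (NM_001159518, chr5:77778271-77778330, minus strand), was near background. It gave 25.9, 29.8, 39.9 and 36.7 on the control arrays and 25.5, 34.2, 23.3 and 27.9 on the ischemia arrays, and was well above background on 3 of 4 and 2 of 4. The difference was -0.25 (SE 0.164, 95% interval -0.62 to 0.13, limma adjusted p = 0.638), and -0.21 without ischemia replicates 1 and 4.

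**Figure D3:**
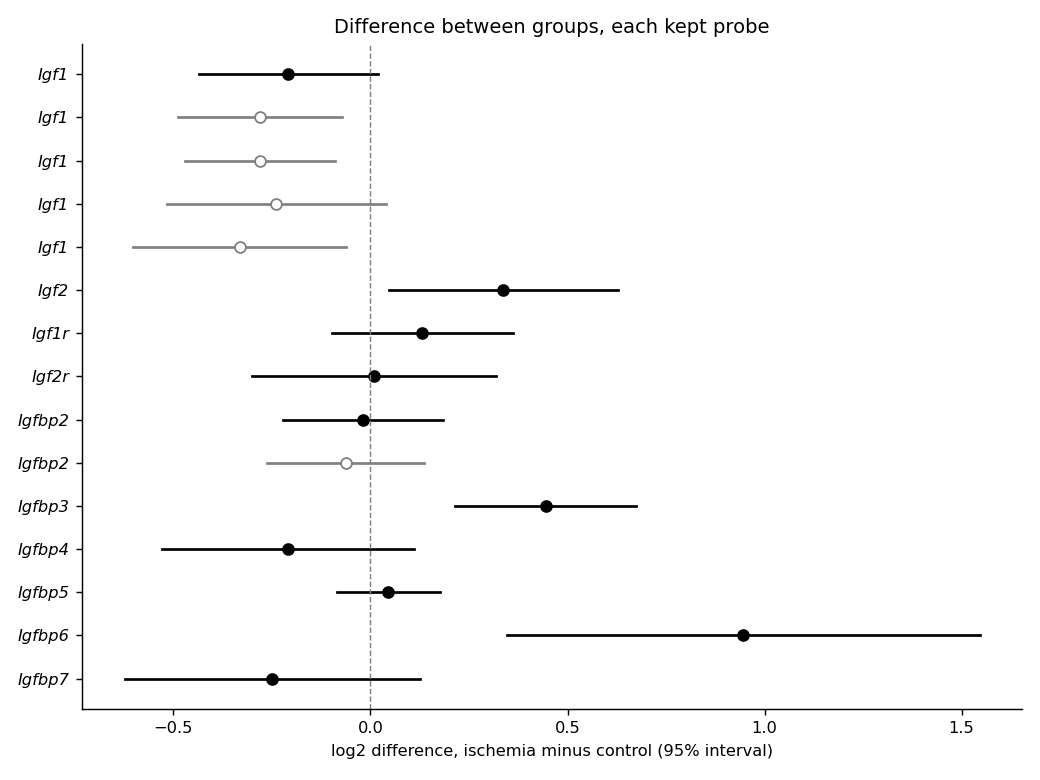
Log2 difference (ischemia minus control) of each of the 15 kept probes with its 95% interval from limma, not adjusted for the number of genes; filled symbols are the probes used for the genes. The intervals of Igf2, Igfbp3 and Igfbp6 lie above 0, and those of 3 further Igf1 probes below 0.

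The order of the ischemia arrays differed between the higher members. Relative to the control mean, ischemia replicates 1 to 4 stood at 0.56, 0.30, 0.14 and 0.35 on the log2 scale for Igf2, at 1.65, 0.26, 0.77 and 1.10 for Igfbp6 and at 0.58, 0.52, 0.53 and 0.15 for Igfbp3. Of the 18 listed meningeal fibroblast markers 15 were measured, with 11 higher, 4 lower and a median of 0.19. Without ischemia replicate 1 that median was 0.03, without ischemia replicate 2 it was 0.44, without control replicate 4 it was 0.30, and without ischemia replicates 1 and 4 it was -0.04. At an unadjusted limma p under 0.05, 2 (Ptgds and Slc6a13, a transporter) were higher and 0 lower, against 3.25% and 7.65% of all genes. Slc6a13 was well above background on only 2 of 4 control arrays. Its level was 18.9 to 34.7 in control, 348 on ischemia replicate 1 and 29.4, 55.0 and 72.4 on ischemia replicates 2 to 4. The mean of that list stood at 1.21, -0.14, 0.22 and 0.76 on ischemia replicates 1 to 4 and between -0.16 and 0.15 on the control arrays. Igfbp6 thus ranked the 4 ischemia arrays as the mean of the meningeal list did. The list's summed level, in which bright probes weigh most, was 2182 to 2648 in control and 2291 to 6942 in ischemia. On ischemia replicates 1 and 4 it was 6942 and 6756.5, of which Ptgds alone gave 2937 and 3970. The part of meningeal tissue in the Igfbp6 and Igf2 differences was not tested. The meningeal markers differed in size and order on ischemia replicates 1 to 4. Ptgds stood at 3.83, 0.52, 0.78 and 4.27, and Dcn, the fibroblast proteoglycan decorin, at 0.67, -1.24, 0.19 and 0.44. Dcn ranked these arrays as the list mean did, while Col3a1 stood at 1.31, -0.67, 0.78 and -0.03. Foxd1 (0 of 8 arrays), Aldh1a2 (1 of 8) and Fmod (3 of 8) were not measured.

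Igfbp3 ranked the ischemia arrays unlike the meningeal and choroid plexus lists, though its values on replicates 1 to 3 lay close together. It was lowest on ischemia replicate 4, where the choroid plexus list mean was 2.66, against -0.02, -0.35 and -0.04 on replicates 1 to 3, and where Ttr, the choroid plexus transport protein transthyretin, had a level of 38748 against 30.2 to 38.6 on the control arrays. Only 8 of 15 listed choroid plexus markers were measured, 6 higher and 2 lower, 0 of them at an unadjusted limma p under 0.05, with a median of 0.22. The summed level was 1270 to 1396 in control and 1285 to 42152 in ischemia, where Ttr alone made up most of the highest sum. Without ischemia replicate 4 the median of that list was -0.14, and without replicates 1 and 4 it was -0.09. Enpp2, the enzyme autotaxin, had the smallest p of the list, with a log2 difference of 0.28 (limma adjusted p = 0.558). Kl, another choroid plexus marker, was well above background on 1 of 8 arrays. The endothelial list had 18 of 18 genes measured, 12 higher and 6 lower, with a median of 0.08. Its mean stood at 0.28, 0.44, 0.13 and 0.07 on ischemia replicates 1 to 4. Like Igfbp3, this list mean was lowest on replicate 4. Its summed levels were 23939 to 26066 in control and 22605 to 28060 in ischemia. At an unadjusted limma p under 0.05, 6 of its genes were higher and 1 was lower, against 3.25% and 7.65% of all genes. The 6 include Slco1a4, whose p is not read, so fewer than 6 are held against that share. Ly6c1, a surface antigen of brain endothelium, differed by 0.84 (limma adjusted p = 0.235). The 1 lower gene was Kdr, an endothelial receptor, at -0.31 (limma adjusted p = 0.243), with a second probe at -0.12. Emcn, another of the 6 higher genes, was well above background on only 2 of 4 control arrays. Slco1a4, a transporter of brain vessels, was not well above background on any control array and was among the genes tested only through its 4 ischemia arrays, so its p is not read. The part of vessel content in the Igfbp3 difference was not tested.

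Of 14 listed pericyte and smooth muscle genes 12 were measured, with 3 higher, 9 lower and a median of -0.17, where 43.0% of all genes were higher. At an unadjusted limma p under 0.05, 4 were lower, where 7.65% of all genes were lower and 3.25% higher. The median was -0.04 without scaling, -0.08 without ischemia replicate 3 and -0.28 without ischemia replicates 1 and 4. Notch3, the mural cell receptor, differed by -0.34 (SE 0.071, limma adjusted p = 0.227), and Higd1b, a pericyte gene, also by -0.34 (limma adjusted p = 0.250). The summed level was 5765 to 6094 in control and 4565 to 5762 in ischemia. Of the other cell type lists, microglia had 10 of 18 genes higher, 4 higher and 2 lower at an unadjusted limma p under 0.05 (median 0.02; C1qa, a complement subunit, 0.42, and Ctss, a lysosomal protease, 0.34), astrocytes 7 of 10, 2 of them at that level (median 0.08; Sparcl1 0.27 and Aldoc 0.26) and projection neurons 7 of 14, 1 of them at that level (median 0.00; Fezf2, a deep-layer transcription factor, 0.23, and Tubb3, a neuronal tubulin, -0.11). The counts at that level stand against the same shares of all genes. The medians of these 3 lists changed sign when single arrays were left out. In none of these lists did a gene pass after adjustment over all genes.

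**Figure D4:**
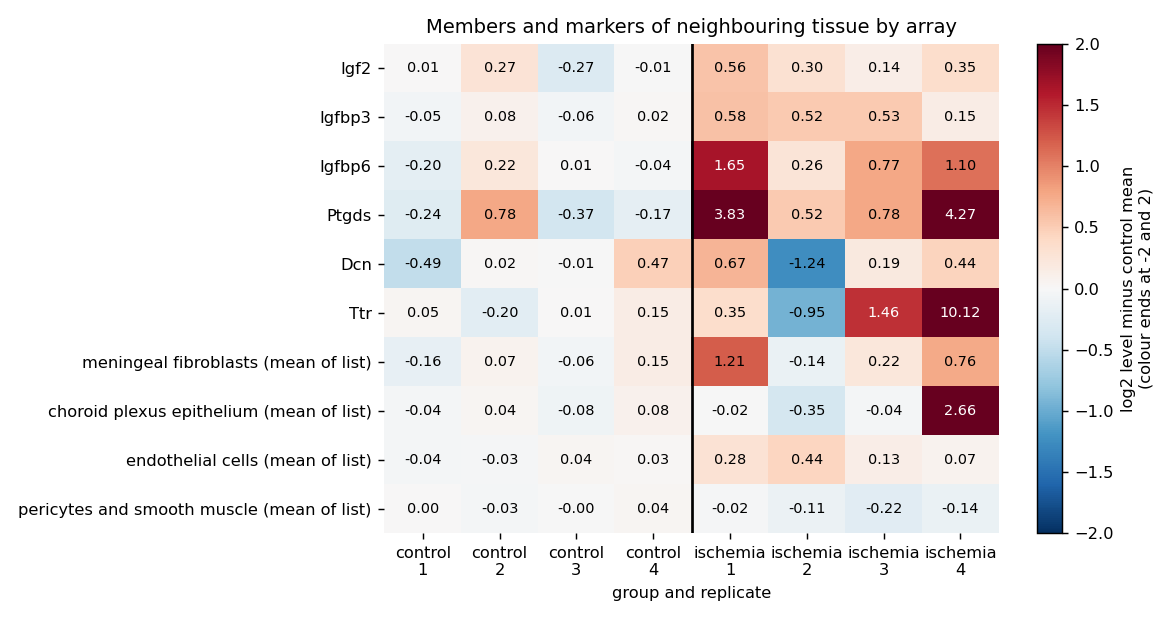
Log2 level minus the control mean of Igf2, Igfbp3, Igfbp6, of the marker genes Ptgds, Dcn and Ttr, and of 4 marker list means, by group and replicate; colour ends at -2 and 2. Ischemia replicates 1 and 4 carry the high Ptgds values, replicate 4 carries the Ttr value of 10.12, and Igfbp6 is highest on replicate 1, at 1.65.

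Genes that control how much ligand is free or made gave 0 calls. Of 15 listed, 10 were measured, 7 higher and 3 lower, with a median of 0.11 against -0.02 for all genes. At an unadjusted limma p under 0.05, 1 was lower and 0 higher, against 7.65% and 3.25% of all genes. The list's median was 0.05 without ischemia replicate 1, 0.03 without ischemia replicates 1 and 4, 0.04 with normexp and 0.25 without scaling. The gene lower at that level was Pappa2, a protease that cleaves Igfbp3 and Igfbp5. Its level was 221, 227, 227 and 231 on the control arrays and 179, 221, 158 and 200 on the ischemia arrays. The highest ischemia array lay among the controls, and the difference was -0.27 (SE 0.101, limma adjusted p = 0.400). Ghr, the growth hormone receptor that drives Igf1 production in liver, differed by 0.58 (SE 0.326, limma adjusted p = 0.569), but its second probe gave -0.17, so its probes disagree in sign. Not measured were Igfbp1 and Pappa (1 of 8 arrays each), Igf2os (3 of 8), and Igfals and Stc1 (0 of 8).

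Downstream signalling genes were evenly split. Of 36 listed genes of insulin and Igf1 receptor signalling 35 were measured, 18 higher and 17 lower, with a median of 0.00 (-0.02 to 0.05 with each array left out in turn), and 0 passed. Foxo3, a transcription factor that Akt keeps out of the nucleus, was the 1 gene at an unadjusted limma p under 0.05, where 3.25% of all genes were higher and 7.65% lower. It gave 26.2, 51.7, 41.5 and 42.9 on the control arrays and 61.4, 58.0, 71.5 and 47.9 on the ischemia arrays. Only ischemia replicate 4 lay within the control range, and the probe was well above background on 3 of 4 control and 4 of 4 ischemia arrays. The difference was 0.59 (SE 0.209, limma adjusted p = 0.385). Grb10, an imprinted adaptor that restrains both receptors, gave 185, 164, 113 and 193 in control and 139, 163, 121 and 165 in ischemia. Its groups overlapped, with a difference of -0.14 (SE 0.180, limma adjusted p = 0.837). Insrr was well above background on 0 of 8 arrays. Of the 4 listed genes of the mannose 6-phosphate tag, which Igf2r also binds, 2 were higher and 2 lower (median -0.04). The smallest p were those of Nagpa, the enzyme that uncovers the tag, at -0.18 (limma adjusted p = 0.466), and M6pr, the smaller receptor of the tag, at -0.12 (limma adjusted p = 0.581).

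Over the 8 arrays, the genes whose levels followed Igf1 most closely, by Pearson's r among 14457 genes with a symbol, were 2610318M16Rik (0.984), Tmc8 (0.982), H1f8 (0.980), Aldh8a1 (0.977) and Elane (0.977). Those closest to Igf2 were Sfxn2 (0.978), Stk24 (0.966), Ssh3 (0.954), Dus3l (0.952) and Mfap2 (0.951). The 8 arrays share a slide and differ in group, and these values are descriptions of the most alike of many genes. For Igf1, r was taken with its probe of highest signal only. On ischemia replicate 1 that probe lay among the controls, unlike the 4 other Igf1 probes.

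Across the alternative settings, 8 of the 10 members kept the sign of their difference, as the plot of settings shows. Igfbp3 ranged from 0.31 to 0.58 and Igfbp6 from 0.36 to 1.18, and no member was called in any setting. Without scaling the median of all genes moved up by 0.14, and so did the medians of the lists.

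**Figure D5:**
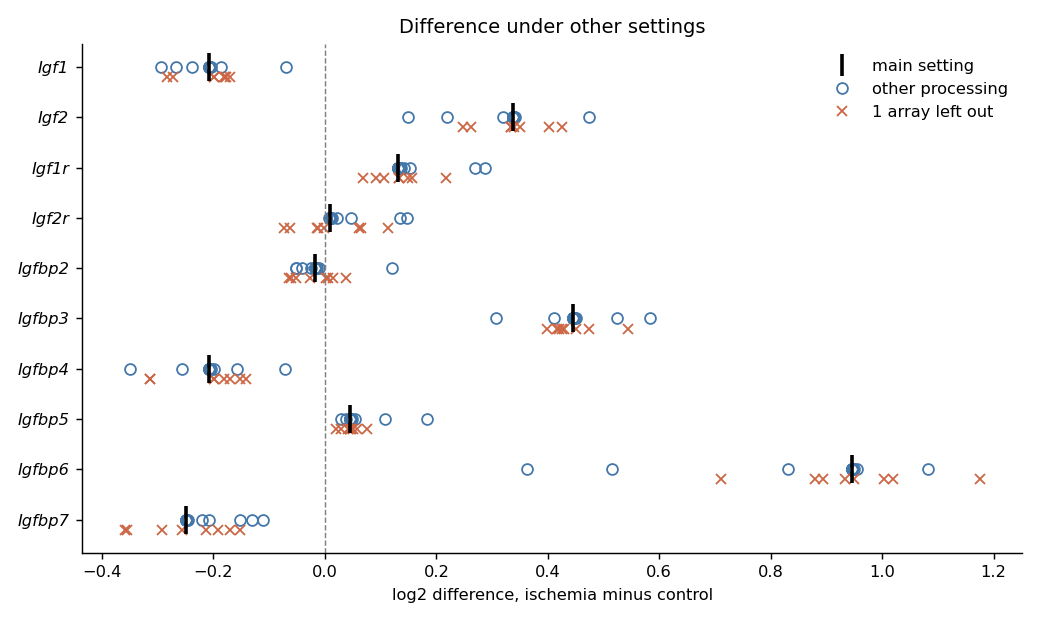
Log2 difference (ischemia minus control) of each member as reported (black bar), under other processing (circles, among them both ischemia replicates 1 and 4 left out) and with 1 array left out (crosses). Igfbp6 spreads from 0.36 to 1.18, and Igf2r and Igfbp2 fall on both sides of 0.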

How the data were processed

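Cortical RNA of 8 pups (4 control, 4 ischemia) was measured on 1-colour Agilent mouse arrays from 50 ng of total RNA, per the labels' protocols. The submitters' processing notes name Agilent Feature Extraction 10.7.3.1. Taken from the files was the processed-signal intensity the authors deposited, background-corrected by that software; the mean and background signal and spot flags were used for an alternative and for filters. The authors' value table was treated as a ratio: each column is the processed signal over 1 constant per array (to within 0.0050% for table values above 1), which the sources used here do not explain.

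Outlier-flagged spots were left out (26 probes lost) and repeat spots averaged as log2. Each array was scaled to its 75th percentile. Probes well above background on at least 4 of 8 arrays were kept (27131), and each gene was read by its brightest kept probe (19751 genes). Names were updated through RefSeq tables (27235 probes by accession, 3581 by symbol, 565 by an older symbol, 24300 kept as filed). Probe coordinates are those of the files (mm9); exons were not analysed here. Groups were compared with limma 3.58.1 in R 4.3.3 (lmFit, eBayes, Benjamini-Hochberg over all genes, threshold 0.05), tested on simulated data. The number of arrays limits the precision.

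The members and gene lists were chosen with earlier results of these data known, and support nothing on their own. Named were all members, in each list any gene that passed, failing which the 2 of smallest p, H19, Insr, Grb10, Igfbp1, Ttr, Kl, Ptgds and Dcn, and for Igf1 and Igf2 the 5 genes most alike (1 gene under this rule is not reported here); unmeasured list genes named in the text were chosen after their values were seen. Alternatives covered background correction, scaling, filters, probe rule, variance model, array weights, the value table, the replicate number as a block and each array left out.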

Additional observations from a re-analysis of the deposited data

Results flagged for a closer look

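In sets of 4 arrays, 68 were checked for an array far from the other 3, and 2 stood out where chance gives about 1 in 20 (3.4 sets). The Igfbp3 level of ischemia replicate 4, 217, lay below the other 3 ischemia arrays (280 to 292), with a gap of 0.852 of the group's range on the log2 scale. The Slco1a4 level of control replicate 1, 14.9, lay below the other controls (24.0 to 25.0), with a gap of 0.923 of the range; these control values are not well above background and their order is not read. Each control array was set at no less than its dimmest probe that stood well above background. This transporter of brain endothelium was then at least 1.87-fold higher in ischemia (mean levels before that step 22.1 and 46.9). The gene was tested only through its 4 ischemia arrays. The fold therefore describes these arrays, leaves out the spread between pups and supports no difference.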

How the results depend on the processing

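No member was called under any of the 20 alternatives (19 for Igfbp7, which 1 filter removed), and 189 of 199 values kept their sign. The difference of Igf2r reversed without control replicate 1 (-0.073) and in 4 other leave-one-out fits, with a leave-one-out range of -0.073 to 0.11. That of Igfbp2 reversed without scaling (0.12, where the median of all genes was 0.11, a shift of 0.14) and in 4 leave-one-out fits, with a range of -0.065 to 0.038. The count of genes called over the whole array, 1 as reported, was 0 with normexp, with quantile normalization, without a filter, with a filter on all 8 arrays and without ischemia replicates 1 and 4; it was 2 with median scaling and without scaling, 20 with a trended and robust variance, and 0 to 1 with each array left out. The cause was not tested. With the replicate block the count was 0, and the differences were 0.95 for Igfbp6 (limma adjusted p = 0.340), 0.44 for Igfbp3 (0.274) and 0.34 for Igf2 (0.335). Replicate numbers, which are also slide columns, were not taken as pairing. Same-numbered arrays deviated together with r = 0.0838, -0.0553, 0.288 and 0.391 across genes for numbers 1 to 4. Differently numbered arrays gave r from -0.231 to 0.178. Numbers 3 and 4 thus lay above that range, and what their arrays share was not tested. Dim probes (Igfbp6, Igfbp7, Foxo3) are limited by signal over background.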
